A study of Mus musculus with 40 samples.

Results

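Rib tissue taken from immature mice 14 days post-resection (14dpr) was compared with rib tissue of immature mice at baseline, that is before any rib segment was removed, to measure how far the regenerating tissue had come back to its starting state. The series followed rib regeneration in immature and mature mice (10 months by the labels) at baseline and on days 0, 2, 5 and 14 after surgery (0dpr, 2dpr, 5dpr and 14dpr). The comparison used 8 of the 40 samples of the series, 4 libraries at baseline (replicates 2, 3, 4 and 6) and 4 at 14dpr (replicates 1 to 4), and all 21204 genes of the filtered count table. Both groups were labelled Wild Type with an age of 7 weeks and no treatment other than the surgery, and the paper's methods name female C75BL/6 mice. The paper describes baseline tissue as collected before surgery, although its label speaks of collection after resection. The callus came from a resection model in which a rib segment is removed and its periosteum is left in place. The baseline samples were labelled as composite tissue of bone, bone marrow and intercostal muscle, the 14dpr samples as bone callus, and the extraction protocol describes bone with intercostal muscle for every stage. Since 1 age is given for both groups, 14 days of growth and the repair itself cannot be told apart. The labels do not say that each library came from a separate animal. The p-values rest on a spread between libraries that was pooled over 39 libraries of both ages and all stages. The sequencing run of each library is not given in the sources used here.

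A rib that has lost a segment refills the gap from the periosteum, the sheath of progenitor cells around the bone, which first lays down a soft callus of cartilage and fibrous matrix. The cartilage cells enlarge, calcify their matrix and are replaced by bone that osteoblasts build and osteoclasts resorb and reshape. The rib before surgery is a finished organ with a marrow cavity that makes blood cells, and it is held in a sheet of skeletal muscle and fat, so the return to baseline involves the skeleton, the marrow and the muscle around it.

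The total count per library was 8755857 to 9775293 at baseline and 8011575 to 9240124 at 14dpr, and 20058 to 20352 genes had at least 1 read in these 8 libraries. Levels are CPM, read counts scaled to the library total with TMM factors, so 1 CPM stood for 8.21 to 10.5 reads, and a gene was called changed at an adjusted p under 0.05 in edgeR's quasi-likelihood test over all 21204 genes. Fold changes are 14dpr over baseline on the log2 scale. Marker genes of the tissue makeup differed in level between the groups. The mean log2 CPM of 42 sarcomere genes, which mark skeletal muscle, was 10.16 ± 0.13 (SD, n = 4) at baseline and 8.09 ± 0.31 at 14dpr, and that of 20 erythroid genes, which mark marrow and blood, was 7.90 ± 0.12 and 5.69 ± 0.57. Neither pair of groups overlapped, and the exact two-sided permutation test gave p = 0.0286 for each, the smallest value that 4 against 4 libraries allow. Both lists were chosen with earlier results of these data known, so this p-value restates the lack of overlap and is no independent support. Mitochondrial genes took 3.48 to 5.22% of the counts at baseline and 1.83 to 2.17% at 14dpr. Marker genes of tissues beside the rib were low, with a summed level of 19.7 to 119.8 CPM at baseline and 16.4 to 40.3 CPM at 14dpr for lung and pleura and 6.03 to 14.9 and 8.11 to 10.9 CPM for keratinocytes. With the sarcomere score of each library as a covariate, 1443 genes were called in place of 6667, and with the erythroid score 4546 were. Since neither score overlapped between the groups, the stage and the tissue makeup share most of their information in these fits, and the part of the makeup in each result was not tested otherwise. In whole tissue, fewer cells of a type and less RNA per cell cannot be told apart.

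At 14dpr the rib tissue differed from baseline in close to 1 of 3 genes, while most of the well-measured genes lay within 2-fold of it. Of the 21204 genes, 6667 were called changed (31.4%), and 8512 had an unadjusted p under 0.05. Of the called genes, 3473 rose (16.4% of all genes) and 3194 fell (15.1%), and 3544 differed by more than 2-fold. The 95% interval of the change lay within 2-fold of baseline for 7616 genes (35.9%), lay wholly beyond 2-fold for 1536 (7.24%), and reached across the 2-fold line for the other 12052 (56.8%). Among the 10610 genes with a mean of at least 10 CPM, these shares were 62.8%, 8.59% and 28.6%. The libraries of the groups did not overlap for 38.9% of the genes, with 14dpr above for 20% and below for 18.9%.

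The same baseline libraries served for the earlier stages, and each stage has its own values. Against baseline, 2257 genes were called at 0dpr (10.6%, with 5.98% of all genes higher), 7911 at 2dpr (37.3%) and 6237 at 5dpr (29.4%). The root mean square difference in log2 CPM over all genes was 0.699 on average between pairs of baseline libraries (range 0.635 to 0.749). It was 1.07 between 14dpr and baseline libraries (0.982 to 1.17), beside 0.993 for 0dpr (0.672 to 1.27), 1.17 for 2dpr and 1.07 for 5dpr. The 0dpr libraries differed from each other by 1.06 on average (0.677 to 1.27), so their distance to baseline did not exceed their own spread. Within 2dpr and 5dpr the averages were 0.641 and 0.644. No pair of a 14dpr and a baseline library was as close as the baseline pairs were to each other, and the 14dpr libraries themselves lay close together (0.584 to 0.633).

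**Figure D1:**
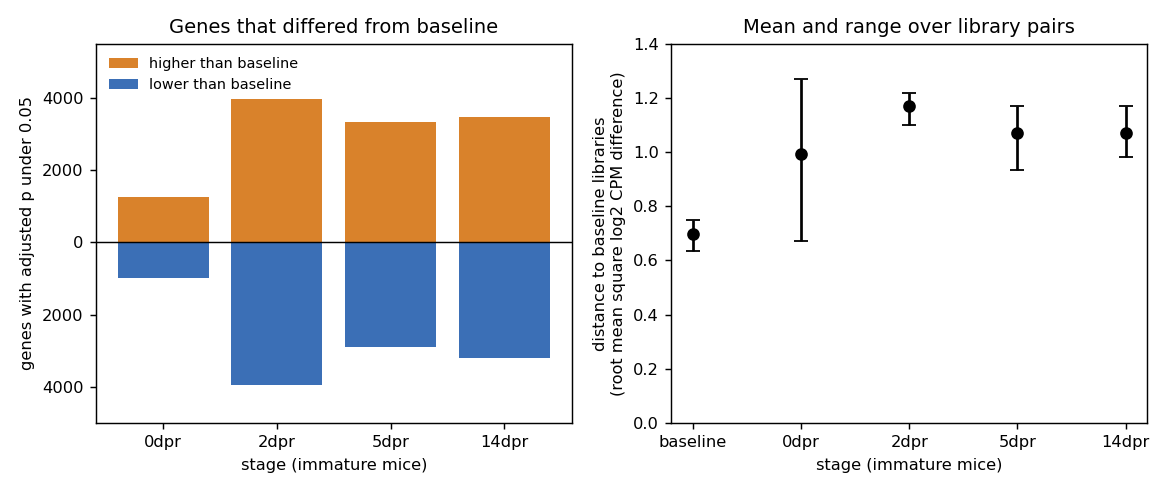
Left, number of genes with an adjusted p under 0.05 against baseline at each stage in immature mice, with higher genes above and lower genes below the line. Right, mean and range over pairs of libraries of the root mean square log2 CPM difference to the baseline libraries. The 14dpr stage stands at 3473 higher and 3194 lower genes and at a mean distance of 1.07, above the 0.699 among baseline libraries.

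The genes were grouped in 43 lists of tissues, cell types and pathways. Inflammatory cytokines, cartilage genes, macrophage genes and repair matrix genes had the highest medians, and megakaryocyte, brown fat, erythroid and sarcomere genes the lowest, while the median over all genes tested was -0.039. Every list is described by its counts and its median, to be read against the 16.4% of all genes that rose and the 15.1% that fell.

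**Figure D2:**
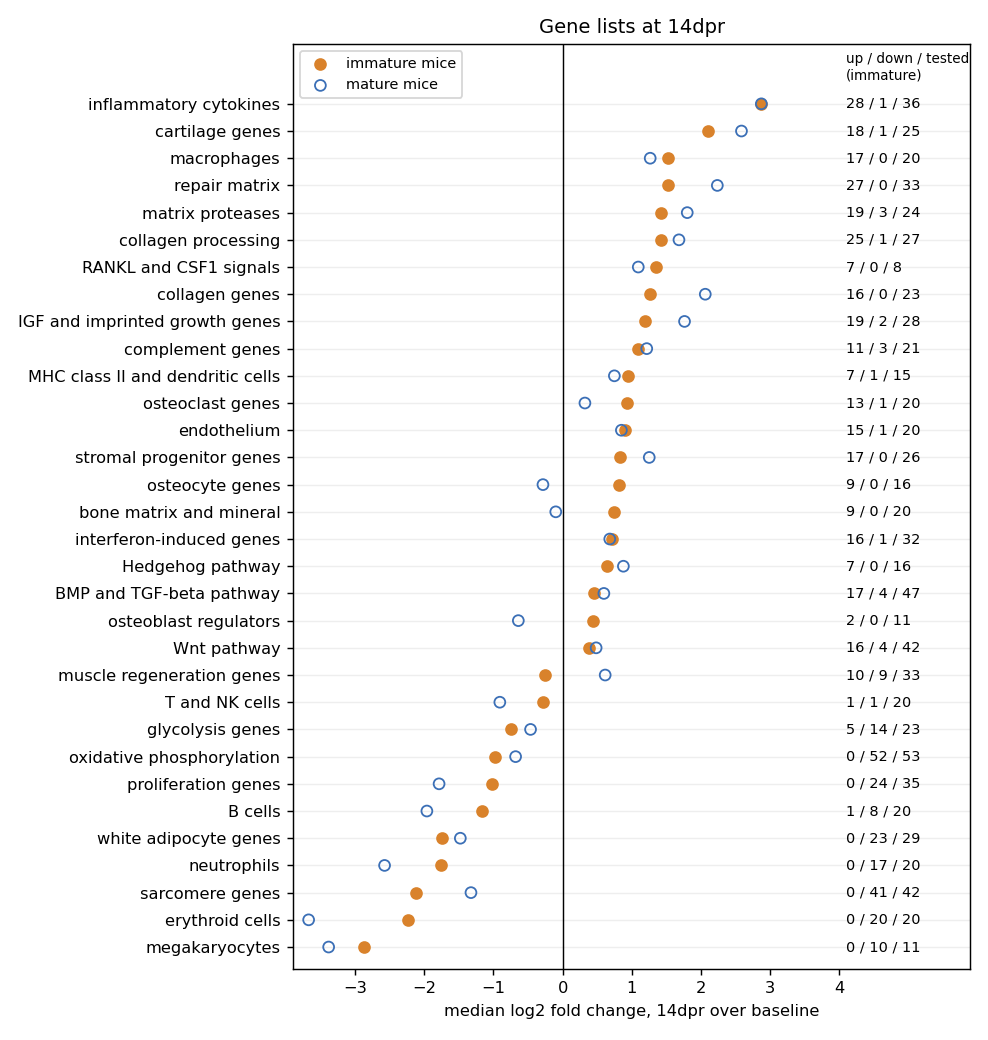
Median log2 fold change at 14dpr over baseline of 32 gene lists, in immature (filled) and mature (open) mice, with the numbers of genes up, down and tested in immature mice at the right. Inflammatory cytokines stand highest in immature mice at 2.86 and megakaryocyte genes lowest at -2.87, and bone matrix, osteocyte and osteoblast regulator genes are above 0 in immature and below 0 in mature mice.

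Matrix genes were among the largest gains in CPM. Of the repair matrix genes, 27 of 33 rose, 0 fell and 6 did not pass the test (median 1.52). Of the fibrillar and other collagen genes, 16 of 23 rose, 0 fell and 7 did not pass the test (median 1.27), and of the enzymes that process collagen, 25 of 27 rose, 1 fell and 1 did not pass the test (median 1.43). Col3a1, the collagen of young and healing connective tissue (ENSMUSG00000026043, chr1:45311538-45349706, GRCm38), had the largest gain of all genes in CPM. It stood at 3191, 2812, 4071 and 3071 CPM in the baseline libraries (in the order of their replicate numbers, here and throughout) and at 22422, 14655, 21979 and 15317 CPM at 14dpr. All 4 callus libraries were above all baseline libraries (log2 fold change 2.5 ± 0.22 SE, n = 4 per group, adjusted p = 1.18e-10). Fn1, which encodes the fibronectin that early matrix is built on, was at 787, 442, 476 and 465 CPM at baseline and at 5359, 3218, 5654 and 4034 CPM at 14dpr. The lowest callus library was above the highest baseline library (log2 fold change 3.07 ± 0.35 SE, n = 4 per group, adjusted p = 1.96e-08), and baseline replicate 2 stood apart from the other three. Postn, the periostin of the periosteum, went from 932, 1152, 1717 and 1491 CPM to 5971, 3467, 5175 and 3445 CPM, again without overlap (log2 fold change 1.77 ± 0.36 SE, n = 4 per group, adjusted p = 1.84e-04). Col5a2, Col6a3 and Tnc, encoding collagens V and VI and tenascin-C, rose as well, with log2 1.83 ± 0.21, adjusted p = 1.89e-08 for Col5a2, log2 2.2 ± 0.22, adjusted p = 1.01e-09 for Col6a3 and log2 1.52 ± 0.31, adjusted p = 1.76e-04 for Tnc. Lox, the enzyme that cross-links collagen, rose from 83.0 ± 7.26 to 367 ± 25.1 CPM (log2 fold change 2.15 ± 0.18 SE, adjusted p = 2.28e-11).

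Matrix-degrading enzymes rose with the matrix. Of the proteases and their inhibitors, 19 of 24 rose, 3 fell and 2 did not pass the test (median 1.43). Mmp12, the elastase of macrophages, was at 0.457, 1.24, 0.681 and 0.383 CPM at baseline and at 281, 405, 549.6 and 631 CPM at 14dpr, one of the 12 largest rises by the rule for named genes (log2 fold change 9.38 ± 0.57 SE, n = 4 per group, adjusted p = 2.61e-14). Mmp14, a collagenase anchored in the cell membrane, rose from 109 ± 22.0 to 439.6 ± 18 CPM (log2 fold change 2.01 ± 0.20 SE, adjusted p = 6.21e-10). Of the 3 members that fell, Timp3 encodes an inhibitor of these proteases and went from 533 ± 126 to 279 ± 40.2 CPM (log2 fold change -0.93 ± 0.22 SE, adjusted p = 0.00127). With the sarcomere score as a covariate, 15 of the 27 calls of the repair matrix list, 11 of the 16 of the collagen list and 15 of the 22 of the protease list remained.

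Cartilage was the part of the skeleton whose genes were furthest above baseline. Of the cartilage genes, 18 of 25 rose, 1 fell and 6 did not pass the test (median 2.11, or 1.85 without the 2 genes that never exceeded 3 reads in one of the groups). Col2a1, the main collagen of cartilage (ENSMUSG00000022483, chr15:97975602-98004695), was at 13.6, 3.71, 6.35 and 1.72 CPM at baseline and at 1972, 226, 1015 and 594 CPM at 14dpr. Every callus library was above every baseline library, and callus replicate 1 held several times the level of replicate 2 (log2 fold change 7.25 ± 1.41 SE, n = 4 per group, adjusted p = 1.05e-04). Col10a1, the collagen of the enlarged chondrocytes that precede bone (ENSMUSG00000039462, chr10:34389981-34397085), was close to absent before surgery, at 0.800, 0.309, 0.567 and 0.957 CPM, and reached 433, 226, 88.4 and 270.3 CPM at 14dpr (log2 fold change 8.56 ± 1.32 SE, n = 4 per group, adjusted p = 3.31e-06). At 5dpr it stood at 4.18 ± 4.01 CPM (SD). Col9a1, another cartilage collagen, and Acan, the aggrecan that gives cartilage its water, rose with log2 8.40 ± 1.51, adjusted p = 3.49e-05 and log2 2.11 ± 0.64, adjusted p = 0.0101. Snorc, a proteoglycan of cartilage, had no read in any baseline library and 19.1, 2.33, 4.34 and 6.27 CPM at 14dpr, at least 25.1-fold higher when the baseline is set to 3 reads per library. Clec3a, a lectin of cartilage, was at no more than 0.114 CPM at baseline and at 44.5, 4.16, 17.2 and 10.3 CPM at 14dpr (log2 8.19 ± 1.43, adjusted p = 2.48e-05).

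Among the regulators of cartilage, Sox9 and Sox5 changed by less than the cartilage genes named above, whereas Sox6 fell and Ihh rose by a larger fold. Sox9, the transcription factor that commits cells to cartilage, was at 1.49, 2.47, 3.63 and 1.53 CPM at baseline and at 10.1, 5.37, 6.40 and 3.93 CPM at 14dpr. The groups did not overlap (log2 fold change 1.5 ± 0.49 SE, n = 4 per group, adjusted p = 0.0186), and the call was lost without baseline replicate 2 (adjusted p = 0.0606), baseline replicate 6 (adjusted p = 0.0629) or callus replicate 1 (adjusted p = 0.0869), and with the erythroid score as a covariate (adjusted p = 0.127). Sox6, a partner of Sox9 that is also made in muscle, went the other way, from 147, 145, 139 and 141 CPM to 29.5, 31.5, 28.7 and 30.9 CPM, with little spread in either group (log2 fold change -2.24 ± 0.20 SE, n = 4 per group, adjusted p = 8.94e-11). Sox5, the other partner, did not pass the test (log2 0.46 ± 0.28, adjusted p = 0.237). Ihh, the hedgehog ligand of maturing chondrocytes, was at 0.228, 0, 0 and 0 CPM at baseline and at 4.87, 2.64, 0.542 and 3.61 CPM at 14dpr (log2 fold change 5.47 ± 1.2 SE, n = 4 per group, adjusted p = 5.18e-04), a low level in every library. Of the Hedgehog pathway genes, 7 of 16 rose, 0 fell and 9 did not pass the test (median 0.64). The receptor component Smo rose (log2 1.10 ± 0.16, adjusted p = 1.55e-06), while Ptch1 and Gli1, whose levels report an active pathway, did not pass the test (log2 0.11 ± 0.20, adjusted p = 0.741 for Ptch1 and log2 0.43 ± 0.44, adjusted p = 0.511 for Gli1). With the sarcomere score as a covariate, 5 of the 19 cartilage calls and 3 of the 7 Hedgehog calls remained, and Col10a1 kept its call at log2 8.70 (adjusted p = 0.0256). Other cartilage genes lost the call with folds of similar size to those without the covariate, at log2 6.33 for Col2a1 (adjusted p = 0.0891), 8.38 for Col9a1 (adjusted p = 0.0604) and 7.89 for Clec3a (adjusted p = 0.0703), whereas Acan stood at 0.52 (adjusted p = 0.868).

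Genes of bone formation had the medians closest to 0 among the skeletal lists, and those that differed were higher. Of the osteoblast regulators, 2 of 11 rose, 0 fell and 9 did not pass the test (median 0.44). Of the bone matrix and mineral genes, 9 of 20 rose, 0 fell and 11 did not pass the test (median 0.74), and of the osteocyte genes, 9 of 16 rose, 0 fell and 7 did not pass the test (median 0.82). Runx2, the transcription factor that starts the osteoblast lineage, was at 45.5, 52.8, 48.1 and 49.6 CPM at baseline and at 34.1, 50.5, 28.7 and 46.6 CPM at 14dpr. The groups overlapped (log2 fold change -0.29 ± 0.36 SE, n = 4 per group, adjusted p = 0.589, 95% interval -1.02 to 0.44). Sp7, which acts after Runx2, had log2 0.74 ± 0.47, adjusted p = 0.25 with an interval from -0.22 to 1.70, and was called when only the 8 libraries entered the fit (log2 0.76, adjusted p = 0.0282). Bglap, the osteocalcin of mature osteoblasts (ENSMUSG00000074483, chr3:88383501-88384464), was at 142, 449, 479 and 433 CPM at baseline and at 116, 439, 141 and 315 CPM at 14dpr. Baseline replicate 2 and callus replicates 1 and 3 were the low libraries, so that the groups overlapped (log2 fold change -0.57 ± 0.63 SE, n = 4 per group, adjusted p = 0.542), and reads of Bglap can be shared with its close copies Bglap2 and Bglap3.

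Among the bone matrix genes that rose were its main collagen chains. Col1a1, the main collagen of bone and of tendon and skin, was at 5105, 8136, 11917 and 11007 CPM at baseline and at 15469.6, 18005, 16712 and 25066 CPM at 14dpr. The groups did not overlap (log2 fold change 1.06 ± 0.39 SE, n = 4 per group, adjusted p = 0.0376), and the call was lost without baseline replicate 2 (adjusted p = 0.13), baseline replicate 3 (adjusted p = 0.0804), callus replicate 2 (adjusted p = 0.055) or callus replicate 4 (adjusted p = 0.115). Its partner chain Col1a2 rose from 9075 ± 2932 to 21066 ± 4422 CPM (log2 fold change 1.21 ± 0.30 SE, adjusted p = 0.00196). Sparc, a protein that binds mineral and collagen, rose from 3084 ± 846 to 8082 ± 762 CPM (log2 fold change 1.39 ± 0.20 SE, adjusted p = 1.51e-06). Cthrc1, a secreted protein of matrix-producing cells, had the smallest adjusted p of the bone matrix list and rose from 11.8 ± 3.95 to 154 ± 11.6 CPM (log2 fold change 3.70 ± 0.31 SE, adjusted p = 4.05e-11). Among osteocyte genes, Phex, the peptidase that controls phosphate and mineral (ENSMUSG00000057457, chrX:157162075-157415312), was at 7.88, 19.5, 22.6 and 21.4 CPM at baseline and at 35.1, 98.7, 45.1 and 86.1 CPM at 14dpr. Every callus library was above every baseline library, with replicates 2 and 4 highest (log2 fold change 1.89 ± 0.47 SE, n = 4 per group, adjusted p = 0.00203). Pdpn, an early osteocyte gene that lymphatic and stromal cells also make, rose with log2 2.93 ± 0.22, adjusted p = 2.30e-12. Sost and Mepe, markers of mature osteocytes, did not pass the test (log2 -0.18 ± 0.63, adjusted p = 0.869 for Sost and log2 -0.17 ± 0.62, adjusted p = 0.869 for Mepe), nor did Alpl, the alkaline phosphatase of mineralizing cells (log2 0.58 ± 0.34, adjusted p = 0.214), which was called when only the 8 libraries entered the fit (adjusted p = 0.0499). Of the calls, 1 of the 9 of the bone matrix list and 1 of the 9 of the osteocyte list remained with the sarcomere score as a covariate, under which Col1a1 had a log2 fold change of -0.088 (adjusted p = 0.968).

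Osteoclast genes had risen above baseline as well. Of the osteoclast genes, 13 of 20 rose, 1 fell and 6 did not pass the test (median 0.93), and of the signals that make osteoclasts, 7 of 8 rose, 0 fell and 1 did not pass the test (median 1.35). Ctsk, the protease with which osteoclasts digest bone collagen (ENSMUSG00000028111, chr3:95499256-95509362), was at 480.0, 634, 716 and 569.7 CPM at baseline and at 1033, 2433, 1288 and 2072 CPM at 14dpr. Replicates 2 and 4 held the highest levels of the callus and no callus library overlapped with baseline (log2 fold change 1.51 ± 0.34 SE, n = 4 per group, adjusted p = 7.19e-04). Acp5, the acid phosphatase that osteoclasts are stained for, was at 550.4, 589, 557 and 422 CPM and 658, 1777, 875 and 1803 CPM, with callus replicate 1 just above the highest baseline library (log2 fold change 1.27 ± 0.32 SE, n = 4 per group, adjusted p = 0.00211). Csf1, the growth factor of macrophages and osteoclasts, its receptor Csf1r and the RANK receptor Tnfrsf11a rose with log2 1.32 ± 0.21, adjusted p = 6.97e-06, log2 1.52 ± 0.13, adjusted p = 8.59e-11 and log2 1.17 ± 0.20, adjusted p = 1.41e-05. Nfatc1, the master transcription factor of osteoclasts, did not pass the test (log2 0.10 ± 0.18, adjusted p = 0.727). Car2, the carbonic anhydrase that supplies acid to osteoclasts and is abundant in red cells, was the one member that fell, from 689, 561, 614 and 709 CPM to 141, 265, 113 and 142 CPM (log2 fold change -1.96 ± 0.65 SE, n = 4 per group, adjusted p = 0.0185). Its call was lost without callus replicate 1 (adjusted p = 0.0508) or replicate 3 (adjusted p = 0.0591), and with the erythroid score as a covariate its log2 fold change was 0.74 (adjusted p = 0.00905). None of the 14 osteoclast calls remained with the sarcomere score as a covariate.

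The 4 callus libraries differed from each other in the levels of several lists, and these differences were not tested. Written as the mean log2 CPM of a list minus the mean of the 4 libraries, cartilage genes stood at 0.83 in replicate 1, -0.49 in replicate 2, -0.18 in replicate 3 and -0.16 in replicate 4. Osteoclast genes were lowest in replicate 1, where cartilage genes were highest, with -0.52, 0.30, -0.18 and 0.41. Bone matrix genes stood at -0.13, 0.23, -0.38 and 0.28, so that replicates 2 and 4 were above the mean for bone matrix and for osteoclast genes. Erythroid genes followed another order, highest in replicate 2 (0.80) and below the mean in replicates 1, 3 and 4 (-0.17, -0.53 and -0.10). Neutrophil genes stood at -0.12, 0.22, -0.48 and 0.38, with replicates 2 and 4 above the mean as for bone matrix genes. Replicate 2 was also lowest in sarcomere genes (-0.44).

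**Figure D3:**
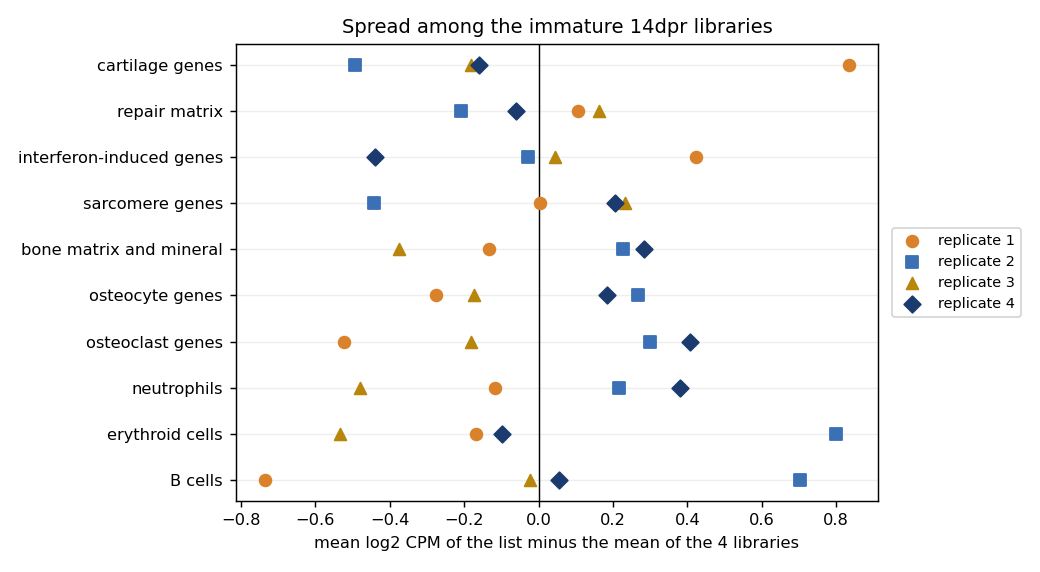
Mean log2 CPM of 10 gene lists in each immature 14dpr library, as the difference from the mean of the 4 libraries. Replicate 1 stands at 0.83 for cartilage and -0.52 for osteoclast genes, replicates 2 and 4 are above 0 for bone matrix, osteocyte and osteoclast genes, and replicate 2 stands highest for erythroid and B cell genes.

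Growth signals of young tissue were far above the level of the unoperated rib. Of the insulin-like growth factor and imprinted growth genes, 19 of 28 rose, 2 fell and 7 did not pass the test (median 1.19). Mest, an imprinted gene of growing mesenchyme (ENSMUSG00000051855, chr6:30723547-30748465), was at 6.85, 4.54, 14.1 and 7.66 CPM at baseline and at 227, 154, 211 and 161 CPM at 14dpr (log2 fold change 4.51 ± 0.33 SE, n = 4 per group, adjusted p = 1.61e-12). It was higher still at 5dpr, at 499 ± 95.4 CPM (SD). Igf1, the main growth factor of bone and muscle, was at 61.3, 56.8, 74.3 and 73.9 CPM and 352, 264, 319 and 297 CPM (log2 fold change 2.21 ± 0.20 SE, n = 4 per group, adjusted p = 2.06e-10). The callus was above baseline in all libraries for both genes. Igf2 and Dlk1, growth genes of the fetus that are imprinted, rose with log2 1.32 ± 0.28, adjusted p = 3.88e-04 and log2 3.50 ± 0.47, adjusted p = 3.95e-07, whereas H19, the noncoding RNA beside Igf2, did not pass the test (log2 0.34 ± 0.22, adjusted p = 0.25). H19 was called higher with the sarcomere score as a covariate (log2 1.21, adjusted p = 0.0326), and with the erythroid score Igf2 lost its call (log2 0.65, adjusted p = 0.117). The 2 members that fell were the receptor Igf1r (log2 -0.90 ± 0.20, adjusted p = 4.31e-04) and the binding protein Igfbp5 (log2 -0.65 ± 0.16, adjusted p = 0.00156).

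Of the signals that steer skeletal progenitors, more genes rose than fell. Of the BMP and TGF-beta pathway genes, 17 of 47 rose, 4 fell and 26 did not pass the test (median 0.46), and of the Wnt pathway genes, 16 of 42 rose, 4 fell and 22 did not pass the test (median 0.39). Fstl1, a secreted binder of these ligands, had the smallest adjusted p of the BMP and TGF-beta list and rose from 257 ± 29.5 to 1692 ± 374 CPM (log2 fold change 2.72 ± 0.18 SE, adjusted p = 1.34e-13). Sfrp2, a secreted binder of Wnt ligands, had the smallest adjusted p of the Wnt list and rose with log2 2.54 ± 0.37, adjusted p = 1.58e-06. Of the stromal progenitor genes, 17 of 26 rose, 0 fell and 9 did not pass the test (median 0.83).

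Sarcomere genes had the largest loss in summed CPM of the lists. Of the sarcomere genes, 0 of 42 rose, 41 fell and 1 did not pass the test (median -2.12), and their summed level was 106462 to 137616 CPM at baseline and 20500.1 to 34088 CPM at 14dpr. Ttn, the titin spring of the sarcomere and the gene with the largest loss in CPM (ENSMUSG00000051747, chr2:76703980-76982547), was at 22418, 28814, 30496 and 26204 CPM at baseline and at 4909.6, 3654, 6503 and 5355 CPM at 14dpr. No library overlapped (log2 fold change -2.40 ± 0.34 SE, n = 4 per group, adjusted p = 6.66e-07). Acta1, the actin of skeletal muscle (ENSMUSG00000031972, chr8:123891769-123894751), was at 13952, 13197, 13924 and 8857 CPM and 3151, 2245, 3591 and 4020.2 CPM (log2 fold change -1.94 ± 0.31 SE, n = 4 per group, adjusted p = 5.36e-06). Myh4, the myosin of the fastest fibres (ENSMUSG00000057003, chr11:67238029-67260446), was at 9404, 13004, 11805 and 9457 CPM and 1794, 1494, 2779.8 and 2498 CPM (log2 fold change -2.35 ± 0.34 SE, n = 4 per group, adjusted p = 1.54e-06). In both genes the highest callus library was below the lowest baseline library. Mylk4, a myosin kinase of muscle, was among the 12 largest falls by fold (log2 -3.82 ± 0.44, adjusted p = 1.94e-08), and Tpm3, a tropomyosin of slow fibres and of many other cells, was the one member that did not pass the test (log2 0.29 ± 0.12, adjusted p = 0.0705). Tpm3 was called with only the 8 libraries (adjusted p = 0.0232), with the erythroid score (log2 0.43, adjusted p = 0.0283) and without baseline replicate 6 (adjusted p = 0.0449). A score made of these genes as a covariate takes up their own difference by construction, and under it Acta1 stood at 0.33, Myh4 at 0.22 and Ttn at -0.44.

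The promoters of Acta1 and Myh4, members that fell together, are shown for the CArG box, the site that serum response factor binds in muscle genes. Each sequence runs 5′ to 3′ on the gene's strand from 250 bases before to 50 bases after the RefSeq start (GRCm38.p6), with the CArG box in capitals. The Acta1 window is chr8:123894726-123895025 on the minus strand, with the box starting 73 bases before the start, and the Myh4 window is chr11:67237562-67237861 on the plus strand, with the box starting 104 bases before it. The RefSeq start of Myh4 lies before the GENCODE start of the gene given above.
Acta1: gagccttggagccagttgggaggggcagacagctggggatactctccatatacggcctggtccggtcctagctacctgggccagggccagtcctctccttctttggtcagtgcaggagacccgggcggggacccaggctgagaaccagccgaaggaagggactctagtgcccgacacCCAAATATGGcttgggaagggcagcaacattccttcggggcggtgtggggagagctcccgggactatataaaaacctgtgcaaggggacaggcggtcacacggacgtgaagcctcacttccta
Myh4: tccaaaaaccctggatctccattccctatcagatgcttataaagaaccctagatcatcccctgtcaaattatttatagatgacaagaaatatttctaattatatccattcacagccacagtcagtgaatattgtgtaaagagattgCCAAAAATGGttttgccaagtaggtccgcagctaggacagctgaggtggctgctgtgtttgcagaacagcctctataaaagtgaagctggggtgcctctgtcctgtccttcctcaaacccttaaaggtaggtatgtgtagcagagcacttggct
On either strand, a CArG box was found in 4 of the 33 promoters matched to sarcomere genes and in 1.63% of all 32851 promoters of the same length. The match is a description of the letters only.

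Genes of new muscle fibres changed in both directions. Of the muscle regeneration genes, 10 of 33 rose, 9 fell and 14 did not pass the test (median -0.25). Myh8, the myosin of newborn fibres, was at 20.7, 4.12, 3.74 and 5.84 CPM at baseline and at 96.4, 61.2, 87.1 and 65.4 CPM at 14dpr. Baseline replicate 2 was the high library of its group and still below the callus (log2 fold change 3.18 ± 0.53 SE, n = 4 per group, adjusted p = 1.25e-05), and at 5dpr the level was 738 ± 325 CPM (SD). Myog, which drives myoblasts to differentiate, and Mymk, with which they fuse, rose with log2 1.38 ± 0.30, adjusted p = 4.44e-04 and log2 3.65 ± 0.75, adjusted p = 2.12e-04 from baseline to 14dpr, and stood at 113 ± 31.2 and 34.4 ± 13.1 CPM at 5dpr. Pax7, the marker of muscle stem cells, was low in every group and did not pass the test (log2 0.25 ± 0.59, adjusted p = 0.793), and Myf6, a factor of mature fibres, fell (log2 -2.05 ± 0.29, adjusted p = 7.49e-07).

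Genes of energy metabolism fell beside muscle and fat. Of the oxidative phosphorylation genes, 0 of 53 rose, 52 fell and 1 did not pass the test (median -0.98), of the glycolysis genes, 5 of 23 rose, 14 fell and 4 did not pass the test (median -0.75), and of the white adipocyte genes, 0 of 29 rose, 23 fell and 6 did not pass the test (median -1.74). mt-Co1, a cytochrome oxidase subunit of the mitochondrial genome, fell from 13743 ± 1223 to 6128 ± 231 CPM (log2 fold change -1.17 ± 0.24 SE, adjusted p = 2.74e-04). Aldoa, the aldolase of muscle, fell from 6381 ± 638 to 1688 ± 306 CPM (log2 fold change -1.92 ± 0.24 SE, adjusted p = 7.16e-08), and Slc2a4, the insulin-responsive glucose carrier of muscle and fat, fell from 282 ± 23.9 to 37.5 ± 8.07 CPM (log2 fold change -2.91 ± 0.25 SE, adjusted p = 5.78e-11). Scd1, which makes unsaturated fatty acids in adipocytes, was at 2627, 2792, 3273 and 1310.0 CPM at baseline and at 299, 122, 91.3 and 465 CPM at 14dpr. The spread in each group was wide and the groups did not overlap (log2 fold change -3.35 ± 0.54 SE, n = 4 per group, adjusted p = 6.69e-06). Adipoq, the hormone of fat cells, fell with log2 -1.40 ± 0.30, adjusted p = 3.44e-04, and Pparg, the regulator of fat cells, did not pass the test (log2 -0.44 ± 0.27, adjusted p = 0.236). With the sarcomere score as a covariate, none of the 52 oxidative phosphorylation calls and 1 of the 23 white adipocyte calls remained.

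Most erythroid, megakaryocyte and neutrophil genes were below their baseline level, and fewer of the B cell genes were. The lists of T and NK, plasma and mast cells are described further below. Of the erythroid genes, 0 of 20 rose, 20 fell and 0 did not pass the test (median -2.24), of the megakaryocyte genes, 0 of 11 rose, 10 fell and 1 did not pass the test (median -2.87), of the neutrophil genes, 0 of 20 rose, 17 fell and 3 did not pass the test (median -1.76), and of the B cell genes, 1 of 20 rose, 8 fell and 11 did not pass the test (median -1.17). Hbb-bs, an adult beta globin (ENSMUSG00000052305, chr7:103826534-103828096), was at 10676, 9301, 10199.8 and 6964 CPM at baseline and at 1929, 3455, 1242 and 1562 CPM at 14dpr. Replicate 2 was the highest callus library and still below every baseline library (log2 fold change -2.18 ± 0.44 SE, n = 4 per group, adjusted p = 1.69e-04), and reads of the globin genes can be shared between their copies. S100a9, a calcium-binding protein of neutrophils, was at 4352, 2497, 3071 and 2606 CPM and 984, 1209, 584 and 1046 CPM (log2 fold change -1.71 ± 0.52 SE, n = 4 per group, adjusted p = 0.0105), and its log2 fold change was -0.25 (adjusted p = 0.759) with the erythroid score as a covariate. Ppbp, a chemokine of platelets, fell with log2 -2.89 ± 0.41, adjusted p = 9.42e-07, and Mpig6b, a receptor of megakaryocytes, with log2 -3.83 ± 0.67, adjusted p = 2.66e-05. Pf4, a platelet chemokine that some macrophages also make, was the one megakaryocyte gene that did not pass the test (log2 0.14 ± 0.23, adjusted p = 0.688). Of the developing B cell, Rag1, which cuts antigen receptor genes, overlapped between the groups (log2 -0.42 ± 0.75, adjusted p = 0.724).

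Cell division genes were lower than before surgery. Of the proliferation genes, 0 of 35 rose, 24 fell and 11 did not pass the test (median -1.01), and 33 of the 35 did not overlap between the groups, where 18.9% of all genes lay wholly below baseline. Mki67, the standard mark of dividing cells, was at 775, 631, 584 and 1022 CPM at baseline and at 199, 251, 203 and 206 CPM at 14dpr. All callus libraries were below baseline, and replicate 2 stood above the other three (log2 fold change -1.81 ± 0.39 SE, n = 4 per group, adjusted p = 3.92e-04). With the erythroid score as a covariate, 0 of the 24 proliferation calls remained, and 16 of the 24 with the sarcomere score.

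The list of inflammatory cytokines, which also holds genes that are not cytokines, such as Lcn2, had the highest median of all lists. Of its members, 28 of 36 rose, 1 fell and 7 did not pass the test (median 2.86, or 2.83 without the 4 members that never exceeded 3 reads in one of the groups). Cxcl3, a chemokine that draws neutrophils (ENSMUSG00000029379, chr5:90786103-90789600), had no read in any baseline library and stood at 24.1, 27.4, 29.3 and 18.8 CPM at 14dpr. With the baseline set to 3 reads per library, it was at least 77.8-fold higher (adjusted p = 2.12e-11). Cxcl2 (ENSMUSG00000058427, chr5:90903871-90905938) acts on the same receptor as Cxcl3. It was at 0, 0.103, 0.227 and 0 CPM at baseline and at 110.3, 78.0, 92.3 and 70.6 CPM at 14dpr (log2 fold change 9.90 ± 0.93 SE, n = 4 per group, adjusted p = 3.00e-10). It was at 54.0 ± 23.1 CPM at 2dpr and 10.0 ± 4.53 CPM at 5dpr (SD). Il1b, the interleukin that starts many inflammatory responses, was at 10.6, 5.57, 7.15 and 6.70 CPM and 246, 172, 167 and 121 CPM (log2 fold change 4.56 ± 0.47 SE, n = 4 per group, adjusted p = 2.42e-09), beside 34.3 ± 16.8 CPM at 5dpr. Acod1, the enzyme with which activated macrophages make itaconate, was at 0.228, 0, 0.908 and 0.479 CPM and 142, 92.1, 114 and 87.1 CPM (log2 fold change 8.05 ± 0.70 SE, n = 4 per group, adjusted p = 5.98e-11). In these 4 genes every callus library was above every baseline library. Lcn2, the iron-binding lipocalin of neutrophils, was the one member that fell (log2 -2.0 ± 0.55, adjusted p = 0.00477).

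The promoters of Cxcl2 and Cxcl3, which both lie on chromosome 5 and both rose, are shown for the kappa B motif, the site of the transcription factor NF-kappa B. They cover the same 300 bases around the RefSeq start as above (GRCm38.p6), chr5:90903649-90903948 for Cxcl2 and chr5:90785851-90786150 for Cxcl3, both on the plus strand. The capitals mark 2 overlapping matches of the motif, the first of which starts 97 bases before the start of Cxcl2 and 73 bases before that of Cxcl3.
Cxcl2: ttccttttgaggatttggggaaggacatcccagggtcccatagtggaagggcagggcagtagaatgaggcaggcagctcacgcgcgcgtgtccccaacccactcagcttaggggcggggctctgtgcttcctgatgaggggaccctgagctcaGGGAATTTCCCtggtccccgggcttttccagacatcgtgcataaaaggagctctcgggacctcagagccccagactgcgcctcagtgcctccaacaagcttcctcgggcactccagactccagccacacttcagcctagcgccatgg
Cxcl3: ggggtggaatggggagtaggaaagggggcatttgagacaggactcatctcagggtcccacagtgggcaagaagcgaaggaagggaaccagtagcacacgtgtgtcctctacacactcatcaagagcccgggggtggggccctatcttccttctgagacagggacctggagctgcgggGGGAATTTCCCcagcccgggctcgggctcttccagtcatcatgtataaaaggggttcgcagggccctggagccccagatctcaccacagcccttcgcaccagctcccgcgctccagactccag
A kappa B motif was found on either strand in 7 of the 24 promoters matched to inflammatory cytokines and in 8.46% of all 32851 promoters.

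Macrophage genes rose with the cytokines. Of the macrophage genes, 17 of 20 rose, 0 fell and 3 did not pass the test (median 1.52). Gpnmb, a glycoprotein of macrophages and osteoclasts that take up debris (ENSMUSG00000029816, chr6:49036546-49070929), was at 15.8, 11.8, 7.94 and 5.36 CPM at baseline and at 393, 448, 756 and 691 CPM at 14dpr (log2 fold change 5.81 ± 0.53 SE, n = 4 per group, adjusted p = 1.37e-10). Trem2, a lipid receptor of such cells, was at 2.97, 2.89, 3.63 and 2.30 CPM and 85.8, 69.2, 109.8 and 88.2 CPM (log2 fold change 4.91 ± 0.27 SE, n = 4 per group, adjusted p = 3.07e-15), the smallest adjusted p of the list. Both were well apart from baseline in every library. Lyz2, the lysozyme of macrophages and neutrophils, was among the 12 largest gains in CPM and rose from 1427 ± 311 to 5565 ± 911 CPM (log2 fold change 1.96 ± 0.26 SE, adjusted p = 2.07e-07), and Psap, a lysosomal protein, rose from 1124 ± 122 to 3251 ± 389.6 CPM (log2 fold change 1.53 ± 0.16 SE, adjusted p = 3.25e-09). Vsig4, a complement receptor of resident macrophages, did not pass the test (log2 -1.54 ± 0.74, adjusted p = 0.113), and was called lower with only the 8 libraries (adjusted p = 0.0364). With the sarcomere score as a covariate, 9 of the 17 macrophage calls and 17 of the 29 cytokine calls remained.

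Other immune and vascular lists had smaller medians. Of the complement genes, 11 of 21 rose, 3 fell and 7 did not pass the test (median 1.09), led by C3ar1, the receptor for the C3a fragment (log2 3.88 ± 0.21, adjusted p = 3.07e-15). Of the genes of MHC class II and dendritic cells, 7 of 15 rose, 1 fell and 7 did not pass the test (median 0.95), with the antigen-presenting chain H2-Aa at log2 1.4 ± 0.23, adjusted p = 1.11e-05. Of the interferon-induced genes, 16 of 32 rose, 1 fell and 15 did not pass the test (median 0.72), and of the T and NK cell genes, 1 of 20 rose, 1 fell and 18 did not pass the test (median -0.29). Of the endothelial genes, 15 of 20 rose, 1 fell and 4 did not pass the test (median 0.90). Pecam1, an adhesion protein of vessel walls, was at 123, 125, 121 and 137 CPM at baseline and at 225, 229, 258 and 222 CPM at 14dpr, with little spread and no overlap (log2 fold change 0.89 ± 0.12 SE, n = 4 per group, adjusted p = 5.47e-07). Cdh5, the cadherin of endothelial junctions, rose with log2 1.09 ± 0.17, adjusted p = 2.80e-06, and Kdr, a receptor for vascular growth factor, did not pass the test (log2 0.31 ± 0.16, adjusted p = 0.149).

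**Figure D4:**
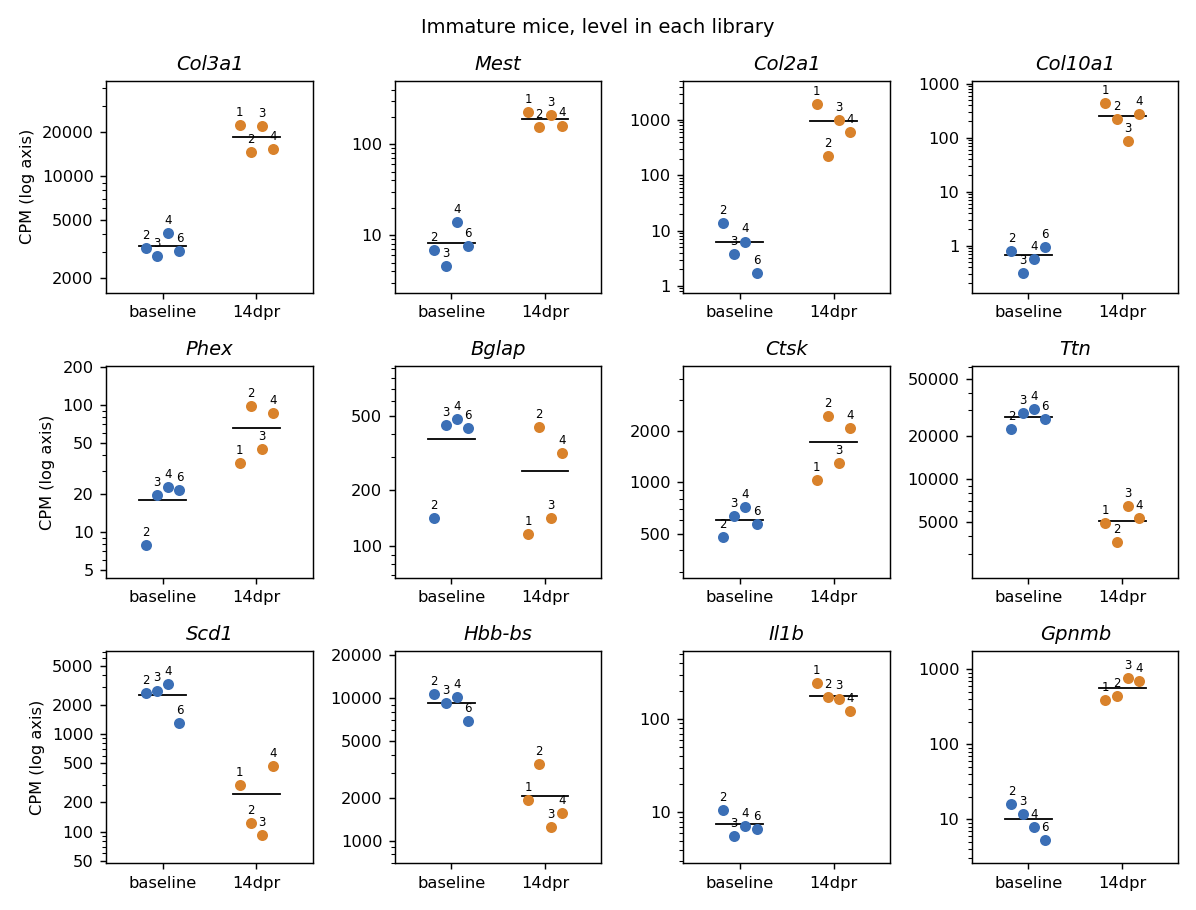
Level in each immature library at baseline and at 14dpr of 12 genes, on log axes, with the replicate number beside each point and the group mean as a line. The 2 groups are separate for 11 of the genes, and Bglap is the one whose groups overlap.

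The rule for named genes also picked genes of no list. Uox, the urate oxidase that is best known from liver, and Chga, a granule protein of endocrine cells, had no read in any baseline library and stood at 10.4, 6.59, 9.22 and 4.35 CPM and 5.48, 1.52, 3.47 and 1.91 CPM at 14dpr. They were at least 23.9-fold and 9.68-fold higher with the baseline at 3 reads per library (adjusted p = 0.00385 and 1.56e-05). Adamts16, a matrix protease, rose from at most 0.0957 CPM to 14.4, 9.43, 16.2 and 6.90 CPM (log2 8.25 ± 0.71, adjusted p = 5.98e-11). Among the largest falls were Acsm3, a mitochondrial enzyme of fatty acid activation (log2 -4.29 ± 0.69, adjusted p = 6.28e-06), Fgfbp1, a binder of fibroblast growth factors (log2 -4.32 ± 0.83, adjusted p = 8.89e-05), and Kcnj5, a potassium channel (log2 -3.96 ± 0.90, adjusted p = 7.66e-04). Among the largest gains in CPM were 2 genes that most cells use, the elongation factor Eef1a1 (log2 0.92 ± 0.14, adjusted p = 4.44e-06) and the cytoplasmic actin Actb (log2 0.79 ± 0.16, adjusted p = 2.36e-04).

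Of the other lists, 1 rose and 5 fell of 12 genes of brown fat (median -2.26), 8 rose and 2 fell of 18 genes of arrest and senescence (median 0.32), 14 rose and 1 fell of 25 genes of the immediate early response (median 0.90), 6 rose and 3 fell of 17 genes of heme and iron handling (median 0.077). Among the markers of other cell types, 4 rose and 2 fell of 14 for plasma cells (median -0.97), 0 rose and 0 fell of 8 for mast cells (median -0.37), 1 rose and 4 fell of 12 for pericytes and smooth muscle (median 0.15), 2 rose and 4 fell of 15 for Schwann cells (median -0.58). For keratinocytes these counts were 1 and 1 of 4 (median -0.15), and for lung and pleura these counts were 0 and 2 of 9 (median -1.20), and for mammary epithelium these counts were 0 and 1 of 4 (median -0.34). Several members of the brown fat list, such as Cox7a1, are also made in muscle.

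Beside the earlier stages, which share the baseline libraries, the lists took different courses. The median of bone matrix genes was -0.56 at 0dpr, -1.19 at 2dpr, -0.60 at 5dpr and 0.74 at 14dpr, and 14dpr was the one stage at which it was above 0. Osteoclast genes had medians of -0.94, -0.94, -0.22 and 0.93. Cartilage genes had 0.31, -0.16, 0.98 and 2.11. The cytokine median was 0.29 at 0dpr, 3.52 at 2dpr, 2.95 at 5dpr and 2.86 at 14dpr, and that of the sarcomere genes 0.64, -1.93, -1.44 and -2.12. Muscle regeneration genes had a median of 1.25 at 5dpr and -0.25 at 14dpr. The differences between stages in these medians were not tested.

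**Figure D5:**
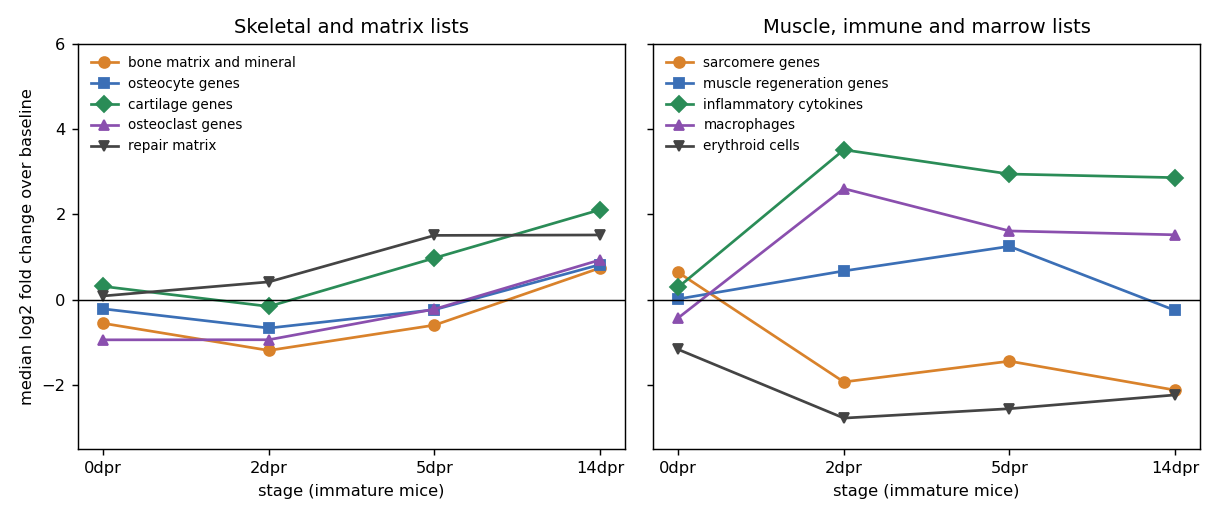
Median log2 fold change over baseline at each stage in immature mice, stages spaced evenly, for skeletal and matrix lists (left) and for muscle, immune and marrow lists (right). Bone matrix, osteocyte and osteoclast medians are below 0 until 5dpr and above 0 at 14dpr. The erythroid median is below 0 at every stage (-1.17 at 0dpr), and the sarcomere median is below 0 from 2dpr on.

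In mature mice, the same comparison of 14dpr with baseline (4 against 4 libraries) called 7113 genes (33.5%), and the difference between the ages was tested gene by gene as an interaction. It was called for 10 genes (0.0472%), each lower in immature than in mature mice, and 1693 genes had an unadjusted p under 0.05. This single direction did not hold in 2 of the other fits, since 59 genes were called with DESeq2, 13 of them higher and 46 lower in immature mice, and 180 with only the libraries compared, 91 higher and 89 lower. Col3a1 led the interaction, with a log2 fold change of 2.5 ± 0.22 in immature and 4.66 ± 0.25 in mature mice (interaction -2.16 ± 0.30, adjusted p = 6.44e-04). Its mean went from 3286 to 18593 CPM in immature mice and from 882 to 22254 CPM in mature mice. Mfap4, a protein of elastic fibres, rose at both ages and less in immature mice (interaction -1.93 ± 0.34, adjusted p = 0.0155). Its means at 14dpr were 132 CPM in immature and 131 CPM in mature mice, and at baseline 31.1 and 8.15 CPM. Cav3, the caveolin of muscle membranes, was at 29.8, 43.8, 38.2 and 38.5 CPM at baseline and at 16.7, 9.94, 12.7 and 15.3 CPM at 14dpr in immature mice (log2 fold change -1.46 ± 0.24 SE, n = 4 per group, adjusted p = 7.39e-06). In mature mice it did not pass the test (0.42 ± 0.24, adjusted p = 0.176), at 14.5 ± 4.69 CPM at baseline and 19.4 ± 3.83 CPM at 14dpr (SD). The interaction of Cav3 was -1.89 ± 0.33 (adjusted p = 0.0155). Scgb2b27, a secretoglobin, had an interaction of -2.62 ± 0.48 (adjusted p = 0.0234). Its mean went from 5.59 to 8.97 CPM in immature mice and from 1.70 to 16.8 CPM in mature mice. Whether an interaction came from the baseline or the 14dpr levels of the ages was not tested. The 10 calls depended on single libraries, since 1 to 35 genes were called when each of the 16 libraries was left out in turn, the lowest count without immature baseline replicate 4, immature callus replicate 2, mature baseline replicate 2 or mature callus replicate 2, and the highest without mature baseline replicate 4. It was 3 without immature callus replicate 4, 4 without immature baseline replicate 3 or mature callus replicate 1, 5 without mature baseline replicate 3, and 6 without mature baseline replicate 1 or mature callus replicate 3.

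For bone, the medians of the ages lay on either side of baseline, at 0.74 and -0.10 for bone matrix genes, 0.82 and -0.28 for osteocyte genes and 0.44 and -0.64 for osteoblast regulators in immature and mature mice. The genes called in mature mice nevertheless rose more often than they fell, with 7 up and 4 down of the bone matrix list, 5 and 1 of the osteocyte list and 3 and 2 of the osteoblast regulators. No single gene of these 3 lists was called in the interaction. Phex, for example, had -0.51 ± 0.46 in mature mice and an interaction of 2.40 ± 0.66 (adjusted p = 0.199). Sarcomere genes had medians of -2.12 in immature and -1.32 in mature mice, erythroid genes -2.24 and -3.67, and repair matrix genes 1.52 and 2.24.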

How the data were processed

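RNA-seq libraries of rib tissue were prepared with a stranded kit and sequenced paired-end in pooled runs. The authors deposited raw read counts per gene for 39 libraries, made per the submitters' processing notes and the methods with STAR 2.5.2a on GRCm38, and a table of normalised signal, which the authors made as CPM on TMM library sizes. The notes also name DESeq2, edgeR and limma. Counts of 21204 genes in the filtered table, which equal those in the full table of 48733 genes, were used here as deposited; the rule of that filter is not given in the sources used here. The deposited CPM equal the TMM CPM recomputed here (largest relative difference 5e-15) and served as a check. A library of mature mice at 5dpr was not analysed here, and no authors' comparison column was used.

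All libraries entered 1 fit of edgeR's quasi-likelihood test (edgeR 4.0.16, R 4.3.3) with a coefficient per group, TMM scaling and no covariate, and p-values were adjusted by Benjamini-Hochberg over all genes. DESeq2 1.42.0, other scalings, filters, thresholds, fits, covariates and libraries left out served as alternatives. Each SE of a fold change was worked back from the test, as the absolute log2 fold change divided by the square root of the F statistic. Confidence intervals (95%) come from this SE and the t distribution, so they are approximate. Distances are root mean square differences of log2 CPM with a prior count of 2. On simulated data, 200 of 21204 genes were changed in the comparison of immature 14dpr with baseline. There, 52% of 2-fold and 88% of 4-fold changes were called, with 4 unchanged genes among 144 calls. The data had 6667 calls, so the adjusted p cutoff was stricter in the simulation, and these shares do not carry over to the data. Replicates differed by at least 7 times the counting variance, so all libraries were kept as separate samples.

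Genes were named by rule: for 14dpr against baseline, the 12 largest fold changes each way among called genes with a mean of at least 1 CPM and no overlap, the 12 largest CPM differences each way, and list members, first those with the highest level or smallest adjusted p, and for the interaction the 5 smallest adjusted p. Predicted genes were left undescribed. For the interaction, 1 called gene is not reported here. The comparison, its 43 lists (928 of 950 members tested) and the named members were chosen with earlier results of these data known. The counts of intervals within 2-fold and the erythroid covariate were added after seeing the data. A filtered row named for a transgene sequence, with 61 to 208 reads in the compared libraries, stayed in. Gene positions are from GENCODE vM21 (GRCm38) and promoters from RefSeq (GRCm38.p6).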

Additional observations from a re-analysis of the deposited data

Results flagged for a closer look

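In 13 of 132 groups of 4 libraries examined, 1 library lay far from the other three by Dixon's test, where chance gives about 1 group in 20. Baseline replicate 2 stood apart with 787 CPM of Fn1, 142 CPM of Bglap and 20.7 CPM of Myh8, and with a mean log2 CPM of erythroid genes of 8.07. It was also flagged for 0.228 CPM of Ihh, which had no read in the other baseline libraries. Any level in a single library gives the highest Dixon statistic, 1, when the others have no read, so this flag was fixed by the zeros. Baseline replicate 6 was low in Acta1, at 8857 CPM, and its mean log2 CPM of white adipocyte genes was 6.72. Baseline replicate 4 stood at a mean log2 CPM of 2.47 for cartilage genes and 3.84 for MHC class II and dendritic cell genes. Callus replicate 2 was high in Mki67, at 251 CPM, and stood at a mean log2 CPM of 5.20 for proliferation genes and 3.19 for muscle regeneration genes, and callus replicate 3 at 5.81 for endothelial genes.

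The change from baseline to 14dpr differed between the ages, by edgeR's test of the interaction (immature minus mature, log2), for 10 genes. The values were -2.16 for Col3a1, -1.93 for Mfap4, -1.89 for Cav3 and -2.62 for Scgb2b27. They were -2.70 for Mucl2, -0.95 for Ldlrad4, -1.67 for 1110002E22Rik, -1.04 for Ptgfrn and -1.64 for Loxl2. Of these, 1110002E22Rik fell in immature mice (-2.02) and not past the threshold in mature mice (-0.35), and Loxl2, an enzyme that cross-links collagen, rose at both ages (2.00 and 3.64).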

How the results depend on the processing

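The count of 6667 changed genes in immature mice stayed within 1.5 times of its value under other scalings, DESeq2 (7201), other filters (6014 without one), smaller sets of libraries (8708 with only the libraries compared), stricter thresholds (4578 at an adjusted p under 0.01) and the erythroid score (4546), and was 5652 to 6103 with a library left out. With the sarcomere score as a covariate it was 1443, with 992 up and 451 down, and 19.8% of the calls remained. That score did not overlap between the groups, so the covariate and the stage share most of their information, and 192 of 614 calls on list members remained. The mature count of 7113 was 2250 with the erythroid score and 6066 to 6630 with a library left out. The interaction count of 10 was 6 with RLE size factors, 59 with DESeq2, 180 with only the libraries compared, 5 with the sarcomere score, 1 with the erythroid score, 1 at an adjusted p under 0.01, and 1 to 35 with a library left out. The distance of 1.07 was 1.36 with a prior count of 0.5 and 0.916 with 5. The cause of these shifts was not tested.

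Under the sarcomere score the medians changed sign for osteoblast regulators (-0.18), sarcomere (0.034), muscle regeneration (0.56), glycolysis (0.062), heme and iron (-0.32) and T and NK cell genes (0.46). So did Col1a1 (-0.088), Acta1 (0.33), Myh4 (0.22) and Cav3 (0.0035), and Car2 under the erythroid score (0.74). Of the 109 genes named, 38 lost their call in the same direction with the sarcomere score, beside the 4 that also changed sign, and 10 with the erythroid score, under which Car2 was called in the other direction.

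The groups share 3 replicate numbers, but libraries with the same number did not deviate together (correlations -0.0691 to 0.000393, beside -0.0501 to 0.0592 for other pairs), so they were not taken as pairs. With the replicate block, 5240 genes were called in immature mice and the interaction called 12, and Sox9 (1.21, adjusted p = 0.0994) and Car2 (-1.79, adjusted p = 0.0934) were not called.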
